A study of Homo sapiens with 8 samples.

Results

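The genes described here are 26 human symbols of matrix remodelling, taken by name from the 14884 gene symbols that the array annotation names: 18 matrix metalloproteinases (MMP), 4 tissue inhibitors of metalloproteinases (TIMP), the collagen COL26A1 and the integrin-binding protein genes ITGB1BP1, ITGB1BP2 and ITGB3BP. The name patterns covered collagens, laminins, integrins, MMPs, ADAMTS proteases and TIMPs, but they found 1 collagen, 0 laminin chains, 0 ADAMTS proteases and 0 integrin chains. The other collagens, the laminins and the integrin chains are not analysed here. MMPs outside the 18, among them MMP2, MMP3 and MMP9, are not analysed either. The set is therefore called the MMP and TIMP set, with COL26A1 and the 3 integrin-binding protein genes named beside it.

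Cells of LX2 (an immortal hepatic stellate line) and of HepG2 (a line from a hepatocellular carcinoma) were seeded at 200000 cells per well and kept for 48 h with CM272 at 400 nM or with its vehicle, DMSO at 0.1%. CM272 blocks both the histone methyltransferase G9a (gene EHMT2) and the DNA methyltransferase DNMT1, and the design asked what the joint inhibition does to the transcripts of each cell type. There were 4 groups (LX2 control, LX2 CM272, HepG2 control, HepG2 CM272) with 2 arrays in each, 8 in all, and each line stands for 1 culture line rather than for a tissue. The medium of HepG2 held 10% fetal bovine serum and that of LX2 2%, so line and serum level cannot be told apart. Whether both arrays of a group had cultures of their own is not stated by the labels, and the tests then cover the spread among these arrays alone, which may be technical.

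Matrix metalloproteinases are zinc enzymes that cut collagens and other matrix proteins. Some are secreted, and the membrane-type members are held at the cell surface by a transmembrane segment or a lipid anchor. TIMPs bind the active enzymes and block them. In the liver, stellate cells are the main source of fibrillar collagen in fibrosis and also make MMPs and TIMPs, and the balance of both is one of the textbook determinants of scar deposition and removal. G9a places a repressive methyl mark on histone H3, and DNMT1 copies DNA methylation at CG pairs after replication, which is why the CG content of the upstream sequences is shown first.

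Upstream sequence from RefSeq (assembly GRCh38.p14, 250 bases before the annotated start, 5′ to 3′ on the gene's strand) was held for 17 of the 26 genes. Shown are the 2 genes that passed the test with CM272 in LX2 (COL26A1 and ITGB1BP1), the 1 that passed the test as higher in HepG2 control (MMP15), and MMP10, a CG-poor neighbour of MMP1. The windows are chr7:101362625-101362874 on the plus strand for COL26A1, chr2:9423570-9423819 on the minus strand for ITGB1BP1 (the more upstream of its 2 annotated starts), chr16:58025504-58025753 on the plus strand for MMP15, and chr11:102780629-102780878 on the minus strand for MMP10. Capitals mark each CG.
COL26A1: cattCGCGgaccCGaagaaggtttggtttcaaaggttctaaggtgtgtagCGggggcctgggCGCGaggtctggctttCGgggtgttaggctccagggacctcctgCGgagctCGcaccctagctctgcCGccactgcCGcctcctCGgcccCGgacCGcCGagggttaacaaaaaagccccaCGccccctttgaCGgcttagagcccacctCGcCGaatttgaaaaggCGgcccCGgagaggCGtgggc
ITGB1BP1: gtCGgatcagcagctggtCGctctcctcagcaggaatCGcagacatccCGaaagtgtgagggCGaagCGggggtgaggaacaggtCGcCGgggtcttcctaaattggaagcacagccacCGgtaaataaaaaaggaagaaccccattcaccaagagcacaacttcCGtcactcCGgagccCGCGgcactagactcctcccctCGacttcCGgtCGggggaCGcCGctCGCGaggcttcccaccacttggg
MMP15: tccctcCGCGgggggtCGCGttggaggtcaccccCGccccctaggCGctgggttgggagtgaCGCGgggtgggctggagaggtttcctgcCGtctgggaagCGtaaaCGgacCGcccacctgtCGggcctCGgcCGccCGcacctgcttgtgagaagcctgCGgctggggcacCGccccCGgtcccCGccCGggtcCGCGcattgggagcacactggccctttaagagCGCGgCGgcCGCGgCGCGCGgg
MMP10: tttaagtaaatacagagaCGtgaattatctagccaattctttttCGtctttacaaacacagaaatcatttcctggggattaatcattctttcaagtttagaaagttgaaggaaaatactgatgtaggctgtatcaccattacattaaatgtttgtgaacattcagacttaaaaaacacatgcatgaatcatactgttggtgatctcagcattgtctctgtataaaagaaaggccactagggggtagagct

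The COL26A1 window held 22 CG pairs, that of ITGB1BP1 20, that of MMP15 31 and that of MMP10 2. Over 35116 RefSeq windows of the same length the median was 11, and 93.9% held at least 1. Among the 10 tested genes with a window, ITGB1BP2 had 3 CG pairs, MMP14 had 7, TIMP1 had 12 and the other 7 had between 20 and 31. The 7 genes too dim to test had between 0 and 11: MMP8 and MMP26 had 0, MMP27 had 1, MMP10 had 2, MMP20 had 3, MMP21 had 6 and TIMP4 had 11. The GC-box letters GGGCGG, searched on both strands, were in 8 of the 17 genes' windows against 42.6% of all windows, and TATAAA was in 5 of 17 against 10.7%. TGAGTCA, the letters of an AP-1 site, were in 0 of the 17 genes' windows against 4.2% of all. At such a share, 17 genes are too few to show a lack of these letters. No window was held for MMP1, MMP12, MMP13, MMP16, MMP17, MMP19, MMP25, MMP28 and TIMP2, so nothing is said of theirs. These matches describe the letters only, and DNA methylation was not measured on the arrays.

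The deposited values are log2 expression on one scale for all arrays, and a gene entered the tests when it was over log2 4 in both arrays of at least 1 group. This left 12239 genes, among them 16 of the 26 (9 MMPs, 3 TIMPs, COL26A1 and the 3 integrin-binding protein genes). Over all 14884 gene symbols, with no brightness filter, arrays of one group correlated at 0.978 to 0.993. The LX2 CM272 arrays lay furthest apart, with a median absolute difference of 0.259 against 0.13 to 0.16 in the other groups. The 6 hepatocyte markers with a probe set had a median of 3.87 in LX2 control and 11.7 in HepG2 control, and 6 of 6 were higher in HepG2. Of 5 stellate cell markers with a probe set, 4 were bright enough to test, and NGFR, TAGLN and RGS5 were lower in HepG2 while DES was not. EHMT2 and DNMT1, the genes of the targets, did not pass the test in either line (adjusted p of 0.954 and 0.323 in LX2 and 0.418 and 0.927 in HepG2, limma), and since CM272 acts on the proteins, their transcripts do not check the treatment.

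**Figure D1:**
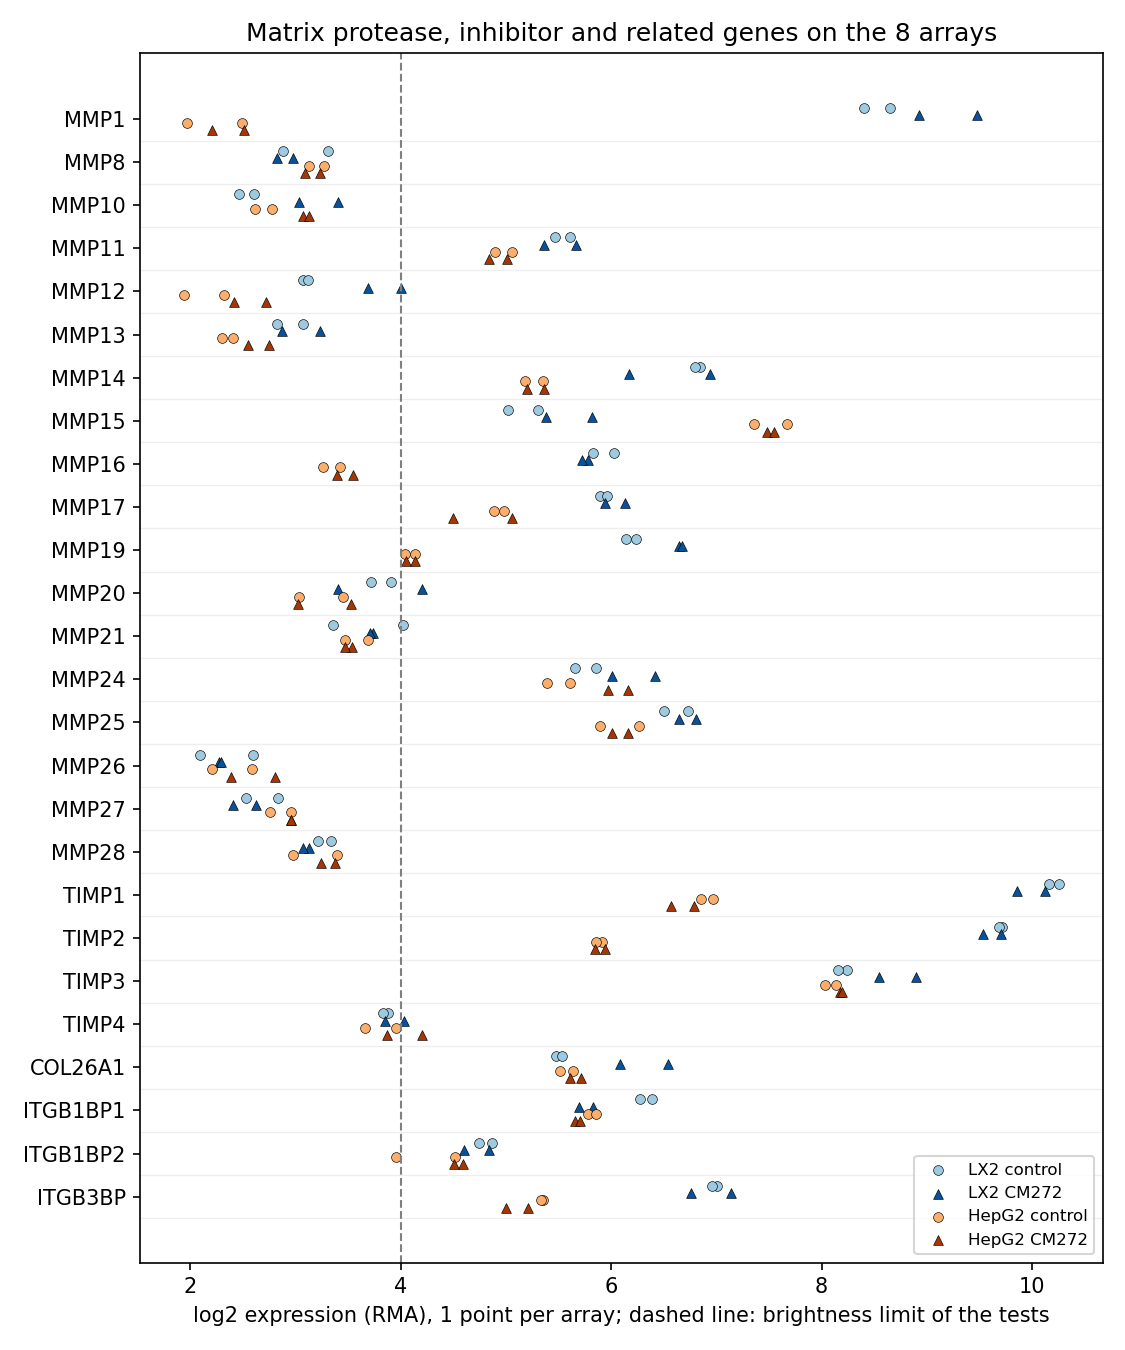
Log2 expression of the 26 genes (x axis, RMA values), 1 point per array, with circles for control and triangles for CM272, blue for LX2 and orange for HepG2. The dashed line at 4 is the brightness limit of the tests. MMP1, TIMP1 and TIMP2 sit far to the right in LX2 compared with HepG2, MMP15 sits to the right in HepG2, and shifts between control and CM272 within a line are small beside those gaps.

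The first comparison set HepG2 control against LX2 control. LX2 held more of most of these transcripts. The interstitial collagenase MMP1, the inhibitors TIMP1 and TIMP2 and the proteases MMP16, MMP19 and MMP14 were all higher in LX2, and the membrane-type protease MMP15 was the 1 gene of the set that passed as higher in HepG2. By limma's moderated test with Benjamini-Hochberg adjustment over 12239 genes at 0.05, 13 of the 16 passed, against 58.1% of all tested genes. Of these, 12 were lower in HepG2, or 75% of the 16 against 40.5% of all genes, and 1 was higher, or 6.25% against 17.7%. Genes that entered only through bright LX2 arrays had to be lower in HepG2, so these counts describe the genes and support nothing further. Of the 16, MMP1, MMP16 and ITGB1BP2 were not over the limit in all 4 control arrays. Among the other 13, 9 passed as lower in HepG2 (69.2%, against 37.7% of the 9981 genes over the limit in all 4 control arrays) and 1 as higher (7.69% against 17.4%). The median HepG2 minus LX2 difference was -0.78 on the log2 scale over the 16 and -0.27 over all tested genes.

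MMP1 cuts the triple helix of fibrillar collagens. Its LX2 control arrays read 8.41 and 8.65 and its LX2 CM272 arrays 8.93 and 9.48. In HepG2 the control arrays read 2.49 and 1.97 and the CM272 arrays 2.50 and 2.21. Every HepG2 array was thus under the brightness limit and every LX2 array far over it. The control difference was -6.30 on the log2 scale (SE 0.23, n = 2 arrays a group), a ratio of 78.7 between LX2 and HepG2, with an adjusted p of 2.6e-08 (limma). As the HepG2 values are at the dim end of the array, where RMA compresses ratios, this size is uncertain.

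MMP1 lies in a row of MMP genes on chromosome 11. The stretch from MMP20 to MMP13 was chosen, and genes beyond its ends were not looked at. In RefSeq order its protein-coding genes are MMP20, MMP27, MMP8, MMP10, MMP1, MMP3, MMP12 and MMP13. Of these 8, 7 are among the 26 genes, while MMP3 is not analysed here. The 6 measured neighbours of MMP1 were all too dim to test. These are the enamel protease MMP20, MMP27, the neutrophil collagenase MMP8, the stromelysin MMP10, the macrophage elastase MMP12 and the collagenase MMP13. No neighbour was over log2 4 in both arrays of any group, and only MMP20 and MMP12 reached it at all, each on 1 LX2 CM272 array (4.21 and 4.01). With no brightness filter, MMP12 was lower in HepG2 control than in LX2 control by 0.96 (adjusted p = 0.0022, limma) and MMP13 by 0.59 (adjusted p = 0.018, limma), in a fit where 50.8% of 14884 genes passed.

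**Figure D2:**
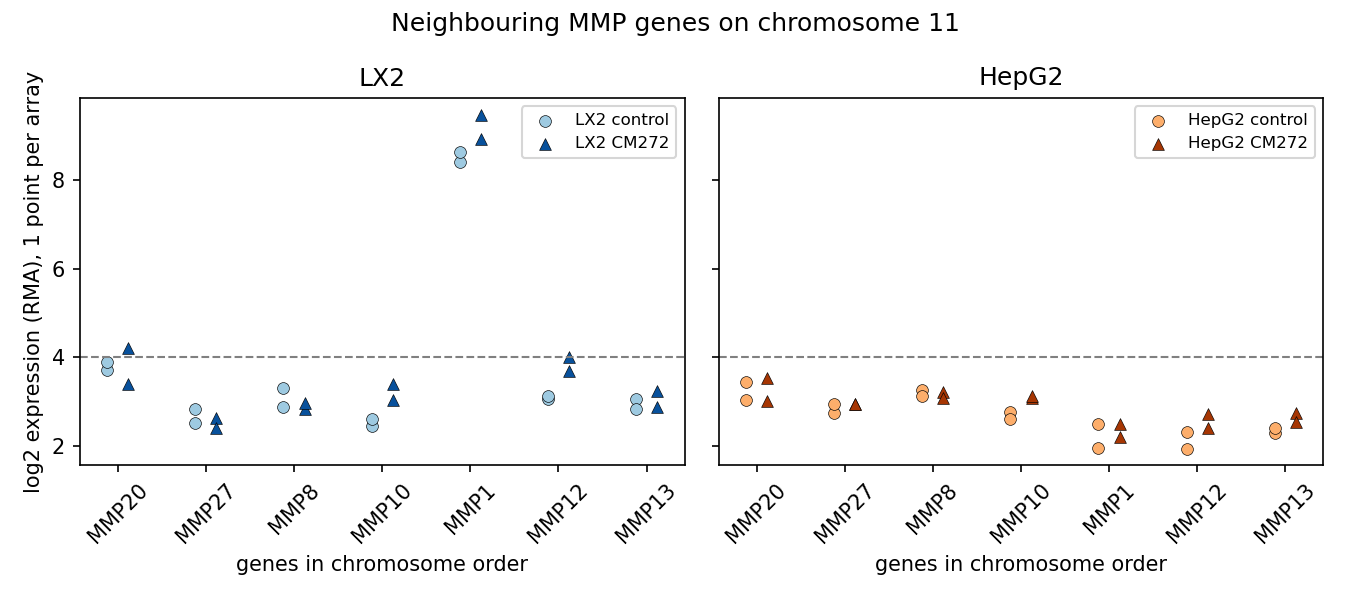
Log2 expression (y axis) of the 7 neighbouring MMP genes in their order along chromosome 11, LX2 on the left and HepG2 on the right, 1 point per array, circles for control and triangles for CM272, with the brightness limit dashed. MMP1 is far over the limit in LX2 (8.41 to 9.48) and under it in HepG2, and the other genes stay near or under the limit in both lines. Heights of different genes come from different probe sets and are not compared.

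The membrane-type proteases split between the lines. MMP15, a transmembrane protease, read 5.02 and 5.30 in LX2 control, 5.82 and 5.38 in LX2 CM272, 7.36 and 7.67 in HepG2 control, and 7.48 and 7.55 in HepG2 CM272. All HepG2 arrays were above all LX2 arrays, and the control difference was 2.36 (SE 0.19, n = 2 a group), a 5.12-fold higher level in HepG2 (adjusted p = 4.0e-06, limma). MMP14, which cuts collagen at the cell surface and activates the MMP2 proenzyme, ran the other way, with 6.84 and 6.80 in LX2 control and 5.18 and 5.35 in HepG2 control. In the treated groups MMP14 read 6.94 and 6.17 (LX2) and 5.20 and 5.36 (HepG2). The groups of the 2 lines did not overlap, and MMP14 was 2.94-fold lower in HepG2 control (log2 difference -1.56, SE 0.22, adjusted p = 2.2e-04, limma).

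MMP16, another transmembrane member, read 5.83 and 6.02 in LX2 control, 5.78 and 5.72 in LX2 CM272, 3.26 and 3.42 in HepG2 control and 3.54 and 3.39 in HepG2 CM272. It was under the brightness limit on every HepG2 array, and the control difference was -2.59 (SE 0.14, adjusted p = 3.1e-07, limma). MMP16 entered the tests through its LX2 arrays alone, and the size of its difference is uncertain as for MMP1. MMP17, which is held by a lipid anchor, read 5.89 and 5.96 in LX2 control, 6.13 and 5.94 in LX2 CM272, 4.98 and 4.89 in HepG2 control and 5.06 and 4.50 in HepG2 CM272. It was 1.99-fold lower in HepG2 control (adjusted p = 0.0013, limma), with no overlap between the lines. The lipid-anchored MMP25, first known from leukocytes, read 6.50 and 6.73 in LX2 control and 5.89 and 6.26 in HepG2 control, a difference of -0.54 (SE 0.17, adjusted p = 0.020, limma). Its CM272 arrays stayed close, at 6.81 and 6.65 in LX2 and 6.01 and 6.16 in HepG2. MMP25 has 3 probe sets, which gave differences of -0.54, -0.65 and 0.14 between the control groups.

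MMP24, a transmembrane protease best known from the nervous system, differed least among this group. It read 5.65 and 5.85 in LX2 control, 6.41 and 6.01 in LX2 CM272, 5.61 and 5.39 in HepG2 control and 6.16 and 5.97 in HepG2 CM272. The control arrays of the lines did not overlap, but the difference of -0.25 (SE 0.18, interval -0.65 to 0.15) did not pass the test (adjusted p = 0.25, limma).

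Of the secreted proteases bright enough to test besides MMP1, MMP19 showed the larger gap. MMP19, which cuts basement membrane proteins, read 6.14 and 6.23 in LX2 control, 6.65 and 6.67 in LX2 CM272, 4.14 and 4.04 in HepG2 control and 4.14 and 4.05 in HepG2 CM272. The HepG2 arrays were barely over the limit, and the level in HepG2 control was 4.27-fold lower (log2 difference -2.10, SE 0.13, adjusted p = 7.3e-07, limma). MMP11, which is activated inside the cell by furin, read 5.47 and 5.61 in LX2 control, 5.66 and 5.36 in LX2 CM272, 5.05 and 4.89 in HepG2 control and 5.01 and 4.84 in HepG2 CM272. The MMP11 groups of the lines did not overlap, and the control difference was -0.57 (SE 0.16, adjusted p = 0.012, limma).

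Both soluble inhibitors were much higher in LX2. TIMP1, which blocks most secreted MMPs, read 10.26 and 10.17 in LX2 control, 9.86 and 10.12 in LX2 CM272, 6.97 and 6.86 in HepG2 control and 6.79 and 6.57 in HepG2 CM272. TIMP2, which blocks MMPs and also bridges MMP14 to the MMP2 proenzyme, read 9.72 and 9.69 in LX2 control, 9.71 and 9.54 in LX2 CM272, 5.91 and 5.86 in HepG2 control and 5.94 and 5.85 in HepG2 CM272. No array of one line came near the other line for either gene. TIMP1 was 9.82-fold lower in HepG2 control (log2 difference -3.30, SE 0.15, adjusted p = 9.5e-08, limma) and TIMP2 14.1-fold lower (log2 difference -3.82, SE 0.13, adjusted p = 1.9e-08, limma).

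TIMP3, which stays bound to the matrix and also blocks some ADAM proteases, gave no settled order of the lines. Its brighter probe set read 8.25 and 8.16 in LX2 control, 8.90 and 8.55 in LX2 CM272, 8.03 and 8.13 in HepG2 control and 8.17 and 8.19 in HepG2 CM272, and the control difference was -0.12 (SE 0.15, adjusted p = 0.53, limma). Its dimmer probe set read 4.23 and 4.11 in LX2 control and 5.17 and 5.48 in HepG2 control. With each of 13151 named and bright enough probe sets tested alone, where 57.4% passed, this second set gave a difference of 1.15 (SE 0.23, adjusted p = 0.0020, limma) in the other direction. With both probe sets averaged, TIMP3 was higher in HepG2 control by 0.52 (SE 0.18, adjusted p = 0.034, limma). TIMP4, the last of the family, was too dim to test, with values between 3.66 and 4.20 over the 8 arrays.

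The integrin-binding protein genes were lower in HepG2 as well. ITGB3BP, named for binding an integrin tail and also known as a centromere protein, read 7.0 and 6.96 in LX2 control, 6.76 and 7.14 in LX2 CM272, 5.35 and 5.33 in HepG2 control and 5.0 and 5.21 in HepG2 CM272. It was 3.11-fold lower in HepG2 control (adjusted p = 1.7e-05, limma), with no overlap. ITGB1BP2, a muscle chaperone that binds an integrin tail, read 4.87 and 4.74 in LX2 control, 4.84 and 4.60 in LX2 CM272, 4.51 and 3.95 in HepG2 control and 4.50 and 4.59 in HepG2 CM272. This gene is close to the brightness limit, its HepG2 control arrays lay furthest apart of all 26 genes in that group, and its difference of -0.58 (SE 0.19) had an adjusted p of 0.027 (limma). ITGB1BP1 and COL26A1 are taken up with the treatment, and their control differences were -0.52 (SE 0.13, adjusted p = 0.0084, limma) and 0.07 (SE 0.17, adjusted p = 0.73, limma).

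Over all 26 genes with no brightness filter, both HepG2 control arrays lay below both LX2 control arrays for 17 genes, or 65.4% against 51.7% of 14884 genes, and above them for 2, MMP10 and MMP15, or 7.69% against 27.4%. Under quantile normalization of the 8 arrays the median difference of all genes moved from -0.27 to -0.01, and 9 of the 16 genes passed in place of 13, with 8 lower and 1 higher in HepG2. Of all genes that passed, 30.4% were higher in HepG2 as deposited and 47.3% after quantile normalization. The larger gaps of MMP1, TIMP1, TIMP2, MMP16, MMP19, MMP14, MMP17, ITGB3BP and MMP15 passed in each of the 15 alternatives tried for them. Without LX2 control replicate 2, the calls of MMP25, ITGB1BP1, MMP11 and ITGB1BP2 were lost, with adjusted p of 0.14, 0.071, 0.086 and 0.071 (limma). Leaving out HepG2 control replicate 1 ended those of MMP25 (0.18) and ITGB1BP1 (0.059), leaving out HepG2 control replicate 2 those of MMP11 (0.085) and ITGB1BP2 (0.25), and leaving out LX2 control replicate 1 that of ITGB1BP2 (0.14).

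**Figure D3:**
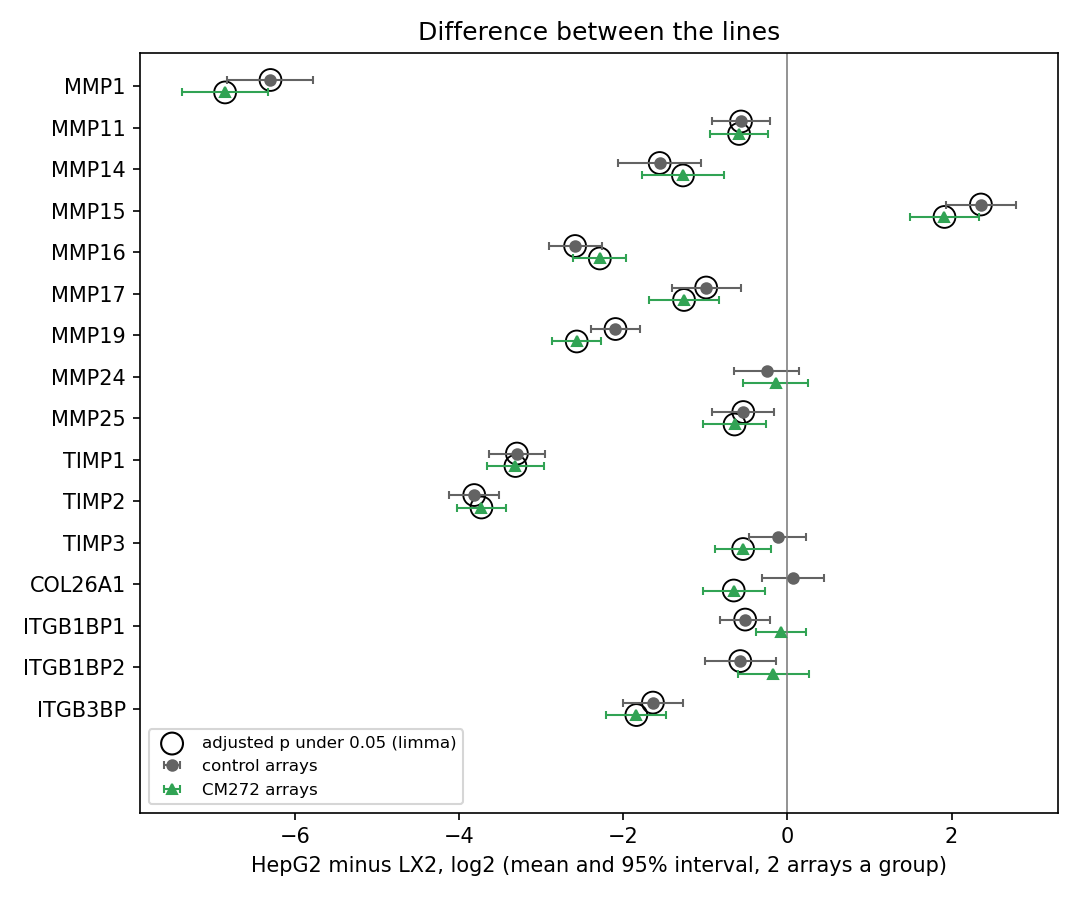
HepG2 minus LX2 difference in log2 expression (x axis, with 95% interval) of the 16 tested genes, grey circles for the control arrays and green triangles for the CM272 arrays, 2 arrays a group, with an open ring where the adjusted p was under 0.05. MMP15 is the 1 gene to the right of 0 with a ring (2.36 and 1.91), and COL26A1 and TIMP3 have a ring only among the CM272 arrays.

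The second comparison set LX2 CM272 against LX2 control. COL26A1 rose and ITGB1BP1 fell, and the MMPs and TIMPs gave values but none passed the test. These were 2 of the 16 genes (12.5%), against 8.42% of all tested genes, with 1 higher (6.25% against 3.79%) and 1 lower (6.25% against 4.63%). A share so near the background is not a result about the set. At an unadjusted p under 0.05 there were 7 of 16, against 25.3% of all tested genes. Of these, 6 were higher (10.5% of all genes) and 1 lower (14.8% of all genes). The median change was 0.04 against -0.02 over all tested genes.

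COL26A1 encodes a collagen first found in testis and ovary. Its arrays read 5.48 and 5.53 in LX2 control, 6.54 and 6.09 in LX2 CM272, 5.51 and 5.64 in HepG2 control, and 5.71 and 5.61 in HepG2 CM272. The LX2 CM272 arrays were above the other 6 arrays, which spanned 5.48 to 5.71. In LX2 the change was 0.81 (SE 0.17, n = 2 a group), or 1.75-fold (adjusted p = 0.023, limma). The gene passed in 12 of 16 alternatives and lost the call without LX2 control replicate 1 (adjusted p = 0.15), without LX2 control replicate 2 (adjusted p = 0.15), with array weights (adjusted p = 0.055) and with LX2 fitted alone (adjusted p = 0.084).

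ITGB1BP1 encodes a protein that binds the tail of the integrin beta-1 chain and keeps the integrin inactive. It read 6.27 and 6.39 in LX2 control, 5.70 and 5.83 in LX2 CM272, 5.78 and 5.85 in HepG2 control, and 5.66 and 5.71 in HepG2 CM272. The LX2 control arrays were above the other 6, and the treated LX2 arrays came down to the range of HepG2. The change in LX2 was -0.57 (SE 0.13), or 1.48-fold lower (adjusted p = 0.034, limma). This call is at the edge of the threshold: it passed in 6 of 16 alternatives, with adjusted p between 0.019 and 0.24, and it was lost without any 1 array other than LX2 CM272 replicate 2.

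Among the proteases in LX2, MMP1 was at 0.68 (SE 0.23, 1.60-fold, adjusted p = 0.11, limma), MMP19 at 0.47 (SE 0.13, adjusted p = 0.057), MMP24 at 0.46 (SE 0.18, adjusted p = 0.14 for its brighter probe set) and MMP15 at 0.44 (SE 0.19, adjusted p = 0.18). Each of these 4 had both CM272 arrays above both control arrays. The second probe set of MMP24 was at -0.11 (adjusted p = 0.85, limma), and the mean of both at 0.18 (adjusted p = 0.64, limma). TIMP3 was at 0.52 (SE 0.15, adjusted p = 0.067, limma), also without overlap, and its second probe set at 0.36 (SE 0.23, adjusted p = 0.38, limma). TIMP1 and TIMP2 were at -0.22 and -0.08, with adjusted p of 0.42 and 0.76 (limma). MMP14 was at -0.27 (SE 0.22, adjusted p = 0.51, limma), but its 2 CM272 arrays disagreed by more than their distance to the controls. Without LX2 CM272 replicate 2, MMP14 was at 0.12, and without replicate 1 it was at -0.65 and passed (adjusted p = 0.045, limma).

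The spread of the LX2 CM272 arrays touches every value of this comparison. The number of genes that passed moved widely with the array left out, in the set and over all tested genes. It is therefore not read as a result about the set. Without LX2 CM272 replicate 2, the median change of the set was 0.185 against 0.025 over all tested genes. Without LX2 CM272 replicate 1, it was 0.034 against -0.041. COL26A1 was at 0.78 without LX2 control replicate 1 and at 0.84 without replicate 2, and ITGB1BP1 at -0.63 and -0.51. Of the 6 dim neighbours of MMP1, 2 had treated arrays clear of the controls. MMP10 read 2.46 and 2.60 in LX2 control and 3.03 and 3.40 in LX2 CM272, and MMP12 3.07 and 3.12 against 3.69 and 4.01. With no filter, where 5.11% of 14884 genes passed, MMP10 was at 0.69 (SE 0.17, adjusted p = 0.048, limma) and MMP12 at 0.75 (SE 0.19, adjusted p = 0.055, limma), and at such levels both are close to the array's floor. The other 4 did not pass, with MMP13 at 0.10, MMP20 at -0.01, MMP27 at -0.16 and MMP8 at -0.20.

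Over the 26 genes with no filter, both LX2 CM272 arrays lay above both controls for 8 (COL26A1, MMP1, MMP10, MMP12, MMP15, MMP19, MMP24 and TIMP3), or 30.8% against 23.8% of all genes, and below them for 4 (ITGB1BP1, MMP16, MMP28 and TIMP1), or 15.4% against 25.4%. Markers of other cell types moved in the same arrays. CD14, a monocyte marker, rose by 1.12 (adjusted p = 0.010, limma), 1 of 2 leukocyte markers with a probe set, and the summed log2 level of both went from 15.4 and 15.4 to 16.8 and 16.2. KRT19, a cholangiocyte marker, rose by 0.67 (adjusted p = 0.031, limma), 1 of 4 of its list, with sums from 21.4 and 21.4 to 23.5 and 22.1. The stellate cell marker DES rose by 1.25 (adjusted p = 0.029, limma), 1 of 4 tested, and the sums of the 5 with a probe set went from 27.1 and 26.8 to 28.1 and 28.2. The other 3 tested stellate cell markers did not pass, with NGFR at 0.49, TAGLN at -0.38 and RGS5 at -0.05, and LRAT was too dim to test. LX2 is a culture line, so these markers are read as transcripts of that line. In bulk RNA, more cells with a transcript and more of it per cell cannot be told apart. The part of these shifts in the results was not tested.

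**Figure D4:**
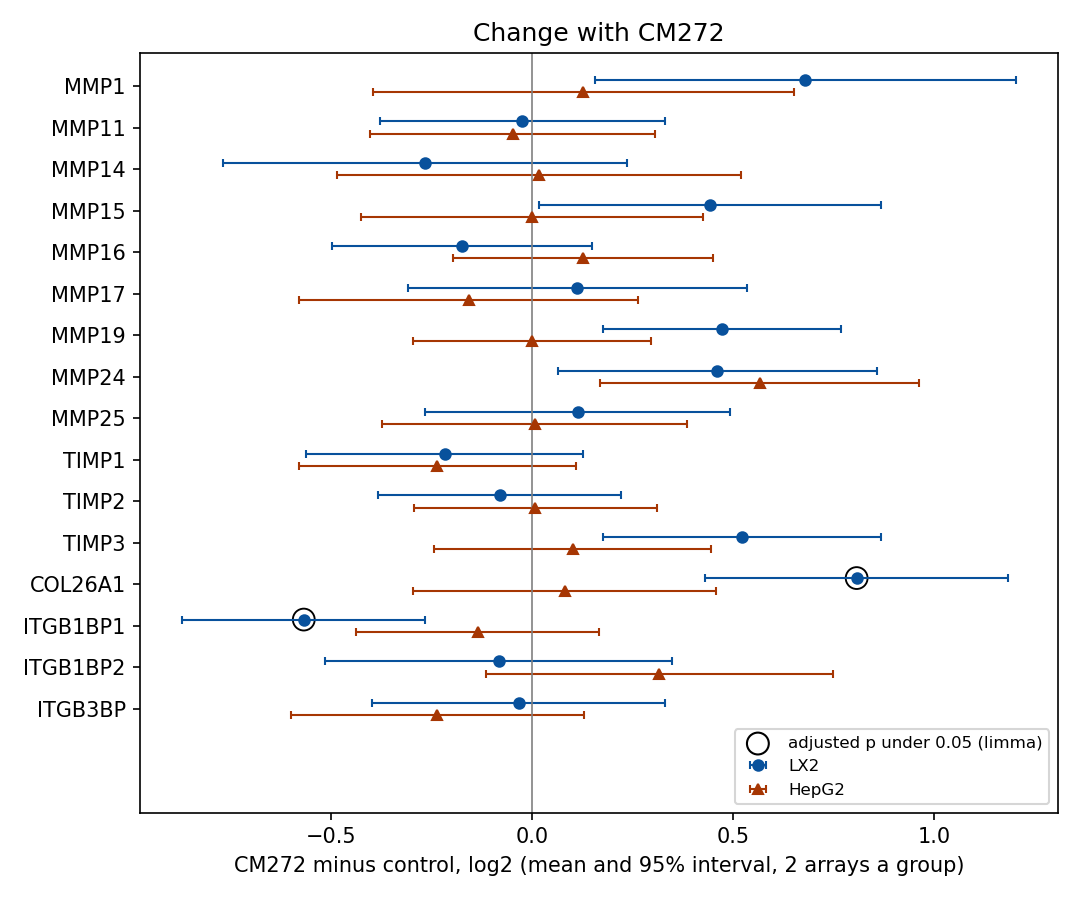
Change with CM272 in log2 expression (x axis, CM272 minus control, with 95% interval) of the 16 tested genes, blue circles for LX2 and brown triangles for HepG2, 2 arrays a group, with an open ring where the adjusted p was under 0.05. Only COL26A1 (0.81) and ITGB1BP1 (-0.57), both in LX2, have a ring, and MMP24 lies to the right of 0 in both lines.

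The third comparison set HepG2 CM272 against HepG2 control. None of the 16 genes passed, against 0.00817% of all tested genes (1 of 12239, limma). At an unadjusted p under 0.05 there was 1 of 16, against 11.5% of all tested genes. It was MMP24, at 0.57 (SE 0.18, 1.48-fold, adjusted p = 0.31, limma), with both CM272 arrays above both controls. The second probe set of MMP24, close to the brightness limit, was at -0.44 (SE 0.28, adjusted p = 0.59, limma). The other genes lay between -0.24 for TIMP1 and ITGB3BP and 0.32 for ITGB1BP2, and MMP19 was at 0.00 with an interval of -0.30 to 0.30. The median was 0.01 against -0.02 over all tested genes. Both treated arrays lay above both controls for 5 of the 26 genes (MMP10, MMP12, MMP13, MMP24 and TIMP3), or 19.2% against 20.8%, and below for 3 (ITGB1BP1, ITGB3BP and TIMP1), or 11.5% against 25.4%.

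Whether the CM272 change differed between the lines was tested as an interaction, taken as the HepG2 change less that of LX2. None of the 16 passed, against 1.18% of all tested genes (0.360% higher and 0.825% lower), and 3 were at an unadjusted p under 0.05, against 17.6% of all tested genes. COL26A1 was at -0.73 (SE 0.24, interval -1.26 to -0.19, adjusted p = 0.16, limma), MMP19 at -0.47 (SE 0.19, adjusted p = 0.23) and ITGB1BP1 at 0.43 (SE 0.19, adjusted p = 0.28). The rise of COL26A1 and the fall of ITGB1BP1 in LX2 are therefore not shown to be absent from HepG2, where the intervals of the change were -0.30 to 0.46 and -0.44 to 0.17. Without LX2 CM272 replicate 2, the interaction of COL26A1 was at -0.95 and passed (adjusted p = 0.031, limma).

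The change averaged over both lines was added after the values were seen, because the brighter probe set of MMP24 had positive differences in both lines. None of the 16 passed, against 2.34% of all tested genes, and 6 were at an unadjusted p under 0.05, against 22.5% of all. MMP24 was at 0.51 (SE 0.13, adjusted p = 0.063, limma), COL26A1 at 0.44 (SE 0.12, adjusted p = 0.077) and ITGB1BP1 at -0.35 (SE 0.10, adjusted p = 0.080). MMP24 passed with the stricter brightness limit of 5 and with a trended, robust variance, and also without LX2 CM272 replicate 2. Its second probe set was at -0.27 (SE 0.20, adjusted p = 0.45, limma).

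The treated groups of the lines were also compared after the values were seen, HepG2 CM272 minus LX2 CM272. As in the controls, 13 of 16 passed, here against 59.9% of all tested genes, with 12 lower in HepG2 (75% against 41.8%) and 1 higher (6.25% against 18.1%), a description for the same reason as in the controls. COL26A1 at -0.65 (SE 0.17, adjusted p = 0.0075, limma) and TIMP3 at -0.54 (SE 0.15, adjusted p = 0.013, limma) were lower in HepG2 among the treated arrays. ITGB1BP1 at -0.08 (adjusted p = 0.62) and ITGB1BP2 at -0.17 (adjusted p = 0.45) did not pass there. MMP1 was at -6.85 and MMP15 at 1.91. After quantile normalization 9 passed, and the calls of COL26A1 and TIMP3 were among those lost. With all probe sets of a symbol averaged, TIMP3 was at 0.41, the other direction, as its second probe set was brighter in HepG2. These differences share arrays with the comparisons above and are not independent of them.

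The wider matrix genes were taken from 5 lists (matrix glycoproteins and proteoglycans, collagen folding and cross-linking, integrin adaptors, other matrix receptors, and plasminogen system with membrane proteases), of which 86 genes outside the 26 could be tested. With CM272 in LX2, 8 of them fell and 0 rose (9.3% against 4.63% of all genes falling, 0% against 3.79% rising), and their median change was -0.13 against -0.02. In either direction the share was thus 9.3% against 8.42% of all tested genes, which is near the background. TNXB was at 0.56 and came just short of the threshold (adjusted p = 0.051, limma). With the limit at 5, averaged probe sets, quantile normalization or a trended, robust variance, 1 list gene rose. LOX, which cross-links collagen, read 9.09 and 9.27 in LX2 control and 8.11 and 8.23 in LX2 CM272, a change of -1.01 (SE 0.15, adjusted p = 0.0064, limma). CRTAP, part of the complex that hydroxylates collagen chains, read 9.63 and 9.71 against 8.89 and 8.91, a change of -0.77 (SE 0.13, adjusted p = 0.012, limma). Neither gene's groups overlapped. Of 16 alternatives, LOX passed in 14 and CRTAP in 13. Both calls were lost without replicate 1 or replicate 2 of LX2 control. LOX was then at -1.1 and -0.92, and CRTAP at -0.81 and -0.73. CRTAP was also lost with LX2 fitted alone (adjusted p = 0.063, limma).

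The other 6 that fell in LX2 had adjusted p between 0.022 and 0.050 (limma). Among them were the membrane protease ADAM19 (-0.79), the matrix glycoprotein THBS2 (-0.69) and the focal adhesion protein TNS3 (-0.68). The rest were the proteoglycan VCAN (-0.65), the hyaluronan receptor CD44 (-0.61) and the shedding protease ADAM10 (-0.59). Of 16 alternatives, THBS2 passed in 4, ADAM10 in 6, CD44 in 7, ADAM19 and TNS3 in 10 each and VCAN in 11. With all probe sets averaged, VCAN was at -0.33 (adjusted p = 0.14, limma). By list, 2 of 26 glycoproteins and proteoglycans, 2 of 16 collagen processing genes, 2 of 21 integrin adaptors (TNS3 and ITGB1BP1), 1 of 12 receptors and 2 of 12 proteases fell, and 0 rose in each. This count was not stable when 1 array was left out, and the count over all tested genes moved as well. A fit that leaves 1 array in a group cannot tell whether the list genes stand apart. Their median change was -0.12 without replicate 1 and -0.16 without replicate 2 of LX2 control. It was -0.205 without replicate 1 and -0.03 without replicate 2 of LX2 CM272. In HepG2, 0 of the 86 passed (limma), against 0.00817% of all tested genes. The interaction passed for 2 of the 86, LOX and CRTAP, or 2.33% against 1.18% of all tested genes. Both were higher (2.33% against 0.360%) and 0 were lower (0% against 0.825%). With 2 genes, this is not read as a result about the lists. The interaction of LOX passed in 7 of 15 alternatives and that of CRTAP in 6 of 15.

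**Figure D5:**
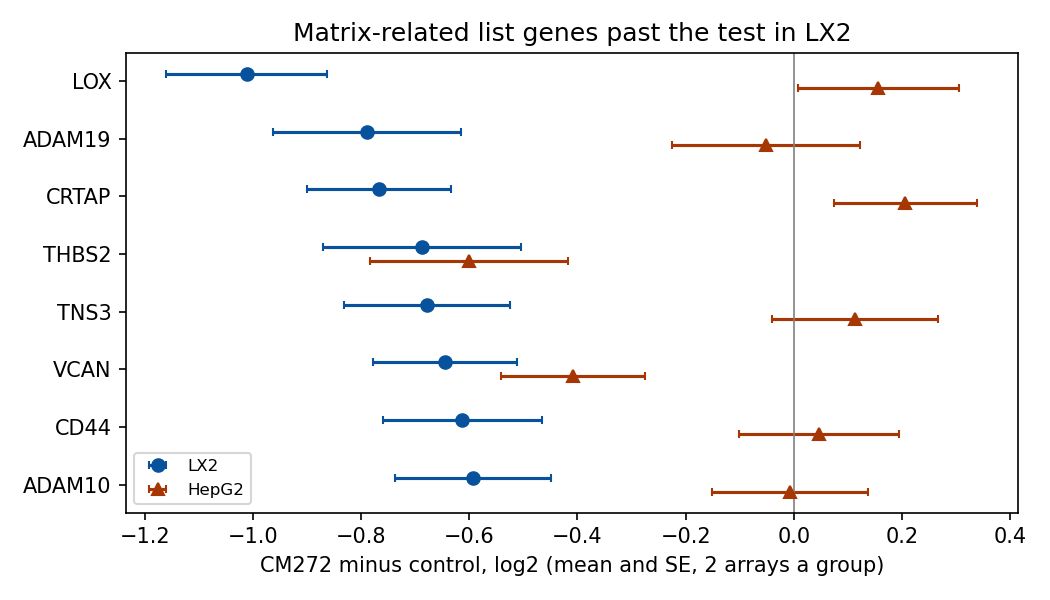
Change with CM272 in log2 expression (x axis, mean with its SE, 2 arrays a group) of the 8 matrix genes outside the set that passed the test in LX2, blue circles for LX2 and brown triangles for HepG2. All 8 circles lie left of 0, from -1.01 for LOX to -0.59 for ADAM10. The HepG2 triangles run from -0.60 for THBS2 to 0.21 for CRTAP, and none of them passed the test.

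Between the control groups, 49 of the 86 were lower in HepG2 and 17 higher (57% against 40.5% and 19.8% against 17.7% of all genes). List genes that entered the tests only through bright LX2 arrays had to be lower in HepG2. Among them were NID2 and ADAM12, with HepG2 control means of 3.18 and 3.43. These counts therefore describe the genes and support nothing further. Lower in HepG2 were 12 of 26 glycoproteins and proteoglycans, 9 of 16 collagen processing genes, 14 of 21 integrin adaptors, 6 of 12 receptors and 9 of 12 proteases. CD44 was at -6.86, the adhesive glycoprotein TNC at -5.93, the lysyl oxidase LOXL2 at -5.05 and the adaptor TGFB1I1 at -5.0. The HepG2 control means of CD44 (3.05) and TNC (3.75) were under the brightness limit, so the size of these 2 differences is uncertain. Higher in HepG2 were, among others, the cartilage matrix protein MATN3 at 4.36, the heparan sulphate carrier SDC2 at 3.86, the kindlin FERMT1 at 2.27, plasminogen (PLG), a liver product whose LX2 control mean was under the limit, at 1.85, and fibronectin (FN1) at 1.38.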

How the data were processed

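Total RNA (300 ng a sample) from 8 samples was hybridised to Affymetrix arrays, 1 array a sample. The authors deposited log2 values made with RMA, per the submitters' processing notes (version and genome build of the array design not given in the sources used here). RMA compresses ratios of dim genes. The deposited arrays were not alike in distribution, with medians over all probe sets of 4.42 to 4.54 in LX2 and 4.19 to 4.25 in HepG2. Arrays give no counts, so the number of arrays limits the precision.

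The platform annotation named 1 gene for 16098 of 48416 probe sets and none for 32318. Symbols were matched by pattern, and the brightest probe set by its mean across arrays stood for its gene. Tests took genes above log2 4 on both arrays of any group. One fit of group means (limma 3.58.1, R 4.3.3) gave the main two-sided tests (4 residual and 5.47 prior degrees of freedom). Their Benjamini-Hochberg adjustment was over 12239 genes at 0.05. Values with no filter, of single or averaged probe sets, and of the other alternatives came from separate fits. Each of those was adjusted over the genes or probe sets in it. An exact permutation test of 2 arrays against 2 cannot go below 0.333. The script was tested on simulated data. Named were all genes of the set that passed, the 3 highest of each family in each line, and up to 3 passing genes per pathway list and comparison, largest first. SDC2, PLG, FN1, FERMT1 and the cell type markers are outside that rule and were chosen after their values were seen. TNXB and some genes of the set that did not pass or were too dim to test are also named outside that rule. Alternatives changed the brightness limit, the probe set rule, the normalization, the variance model, array weights, the line fitted, the replicate block and each array. The genes and lists were chosen with earlier results of these data known. The comparison of treated lines, the mean change, single probe sets, the count over genes bright in all control arrays and the count over the lists were added after seeing the data. Figures were drawn with matplotlib 3.10.9.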

Additional observations from a re-analysis of the deposited data

Results flagged for a closer look

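For 2 genes of the collagen processing list, the CM272 change differed between the lines by the interaction test itself. They were 2 of the 86 tested list genes, or 2.33% against 1.18% of all tested genes, and describe these 2 genes alone. LOX changed by -1.01 in LX2 and was at 0.16 in HepG2, a difference of 1.17 (SE 0.21, adjusted p = 0.037, limma). CRTAP changed by -0.77 in LX2 and was at 0.21 in HepG2, a difference of 0.97 (SE 0.19, adjusted p = 0.044, limma). The LOX interaction passed in 7 of 15 alternatives and that of CRTAP in 6 of 15. Both calls were lost without any 1 of the LX2 control, HepG2 control or HepG2 CM272 arrays. Over all alternatives the difference ran from 1.04 to 1.30 for LOX and from 0.91 to 1.04 for CRTAP. With no filter both calls were lost too (adjusted p = 0.060 for LOX and 0.070 for CRTAP, limma). Array weights also ended both (0.053 and 0.063), and the replicate block ended that of CRTAP (adjusted p = 0.057).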

How the results depend on the processing

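In HepG2, 0 of the 16 genes passed in every alternative tried. In LX2 the count of 2 became 4 with the brightness limit at 5, 0 with array weights and 0 with each line fitted alone, and it ran from 0 to 6 when 1 array was left out. The count over all tested genes moved as well in those fits, so this range is not read as a trait of the set. The interaction count ran from 0 to 1, the control line count from 9 to 14, the treated line count from 11 to 14 and the count of mean changes from 0 to 4 with 1 array left out. The count of mean changes was 1 with the limit at 5 and 1 with a trended, robust variance. The count of 8 list genes in LX2 became 5 with no filter, 13 with a trended, robust variance, 2 with array weights and 1 with LX2 alone, and ran from 0 to 18 with 1 array left out. Among differences of at least 1 SE, those that changed direction were MMP14 in LX2 without LX2 CM272 replicate 2 (0.116, against -0.650 without replicate 1), the MMP17 interaction without HepG2 CM272 replicate 2 (0.0105, against -0.551 without replicate 1), MMP24 between the control lines after quantile normalization (0.0143) and TIMP3 between the treated lines with all probe sets averaged (0.41). Of the smaller ones, 5 of 6 changed direction somewhere in LX2, 7 of 11 in HepG2, 6 of 7 for the interaction, 7 of 7 for the mean change, 3 of 3 between the treated lines and 1 of 2 between the control lines. The last was TIMP3, which passed as higher in HepG2 with all probe sets averaged (0.52). The cause was not tested in any of these. Quantile normalization also moved the share of passing genes that were higher in HepG2 from 30.2% to 47.4% among the treated arrays and the median from -0.29 to -0.03. Arrays with the same replicate number did not deviate together (correlations of -0.054 to 0.077), so the numbers were not taken to pair samples. With the replicate block, the counts were again 2 in LX2, 0 in HepG2, 0 for the interaction and 13 between the control lines, and 7 list genes passed in LX2. Where 1 array was left out, the lone array of its group was assumed to vary like the others.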

Other observations

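Of the 10 genes too dim to test, MMP26, MMP27, MMP28 and MMP8 stayed between 2.09 and 3.39 on all 8 arrays. MMP20 and MMP21 stayed between 3.02 and 4.21, with both LX2 CM272 arrays of MMP20 apart (4.21 and 3.40). MMP13 read 3.07 and 2.83 in LX2 control, 2.87 and 3.23 in LX2 CM272, 2.30 and 2.41 in HepG2 control and 2.75 and 2.55 in HepG2 CM272.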
